A study of Homo sapiens with 6 samples.

Results

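The subject is the set of 10 genes of 9q33 that lie on either side of PBX3_Cl, an ultra-conserved non-coding element (UCE, a stretch of DNA identical among species) inside the gene MAPKAP1. The genes were listed by symbol, MAPKAP1, GAPVD1, HSPA5, RABEPK, PPP6C, SCAI, GOLGA1, MVB12B, LMX1B and ZBTB43, by a rule that sets no condition on a measured value, and all 10 were found among the 52088 entries of the table of read counts. The study deleted UCEs from K562, a human erythroleukaemia cell line that grows in suspension, with a plasmid that carried Cas9 and a pair of guide RNAs, and asked which genes then changed. The 6 bulk RNA-seq libraries used here were 2 of PBX3_Cl KO cells (K562 with PBX3_Cl deleted), 2 of PAX6_Ta KO cells (K562 with a UCE at PAX6 on chromosome 11 deleted, and with no guide against 9q33) and 2 of Control cells (K562 of genotype WT). Knockout cells were transfected, selected with puromycin, picked as single clones and checked by PCR and Sanger sequencing. For Control the labels name no transfection or guide, so loss of the element and the steps of transfection, selection and cloning cannot be told apart in either comparison with Control. PAX6_Ta KO went through the same steps with this locus left in place, and the comparison between the knockouts holds those steps constant. Differences between the picked clones and the loss of PAX6_Ta itself cannot be told apart there from loss of PBX3_Cl. The labels do not say whether replicates 1 and 2 came from separate clones or cultures, and p-values may therefore measure a technical spread.

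A non-coding element can act on genes next to it or on genes far along the chromosome, and the gene it sits in is not always its target. PBX3, after which the element is named, encodes a TALE homeodomain transcription factor, and homeodomain proteins commonly bind cores that read TAATTA, while the TALE factors of the MEIS family bind TGACAG. The 10 flanking genes are not a gene family: they serve growth signalling, protein folding in the endoplasmic reticulum (ER), membrane traffic and transcription.

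The deleted sequence and the guides are shown because every comparison at this locus rests on what was removed. Positions are in GRCh37, the build to which the reads had been aligned. PBX3_Cl spans chr9:128457564-128457785 and is 222 bp long. It is given on the plus strand, with its 3 copies of TAATTA and its 2 copies of TGACAG (which read CTGTCA on this strand) in capitals. The guides are given 5′ to 3′ with the PAM in capitals.
PBX3_Cl: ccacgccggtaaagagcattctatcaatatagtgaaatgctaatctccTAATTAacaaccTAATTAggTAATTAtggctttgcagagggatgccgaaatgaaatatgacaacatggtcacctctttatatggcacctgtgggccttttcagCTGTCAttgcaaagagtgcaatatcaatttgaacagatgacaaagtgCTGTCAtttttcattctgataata
U6 guide: ctcagtactgcaaagactgtGGG
H1 guide: gcttgtacagttaagcatgaTGG
At least 1 TAATTA was present in 9.13% of 541146 windows of 222 bp along chromosome 9, and 3 or more copies in 0.107%, counting both strands. At least 1 TGACAG was present in 13.4% and 2 or more copies in 0.906%. These are matches of letters, not binding sites. Each guide matched the genome once. The cuts they direct, 3 bases from each PAM, lie 972 bp apart (chr9:128457004-128457975) and take out all 222 bases of the element. The deletion falls in the first intron of the canonical MAPKAP1 transcript, between exon 1 and exon 2 of 12. In the GENCODE annotation 0 of 20 MAPKAP1 transcripts have exon sequence in it, so by that annotation the loss removes no MAPKAP1 exon sequence. The annotation with which the authors counted reads was not checked.

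The element lies 11.7 kb inside MAPKAP1, measured from its start site. On the side of lower coordinates follow GAPVD1 (328.1 kb away), HSPA5 (453.9 kb), RABEPK (461.1 kb), PPP6C (505.3 kb), SCAI (551.8 kb) and GOLGA1 (746.8 kb). On the other side PBX3 begins at 51.8 kb, followed by MVB12B (631.3 kb), LMX1B (918.4 kb) and ZBTB43 (1109.5 kb). SCAI and GOLGA1 overlap on the same strand, so reads in the shared stretch could be given to neither or to the wrong gene of the pair.

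Libraries held 45912044 to 60908470 counts. Replicates correlated at 0.981 in PBX3_Cl KO, 0.990 in PAX6_Ta KO and 0.988 in Control (Pearson's r of log2 CPM across genes). Of the erythroid markers of K562, the transcription factor GATA1 was at 331.8 to 341.5 CPM (counts scaled to the TMM-adjusted size of the library) in PBX3_Cl KO, 218.9 to 276.8 CPM in PAX6_Ta KO and 253.4 to 302.7 CPM in Control. The embryonic globin HBE1 was at 3005 to 3696 CPM in PBX3_Cl KO, 4419 to 5318 CPM in PAX6_Ta KO and 2056 to 2617 CPM in Control. Of 16 markers of other cell types, MS4A1 and KRT5 were at 0 in every library, while the fibroblast list summed to 1.77 to 2.29, 22.5 to 22.8 and 48.9 to 132.9 CPM in the same order and the epithelial list to 21.9 to 26.8, 2.13 to 3.71 and 42.3 to 45.6 CPM, mostly from COL1A2 and EPCAM. The pluripotent list summed to 1.11 to 1.68, 102.5 to 106.2 and 4.48 to 6.06 CPM, mostly from LIN28A. The part of these genes in the results was not tested.

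No flanking gene passed the test in PBX3_Cl KO. Of the 10 genes, 8 had enough reads to be tested, and 0 of 8 passed the threshold (adjusted p below 0.05 over all 20746 tested genes, edgeR's quasi-likelihood test) in PBX3_Cl KO against Control, where 8.97% of all tested genes were called. At an unadjusted p below 0.05 the count was also 0 of 8, against 19.6% of all genes, and DESeq2 called 0 of 8, against 9.58%. In PAX6_Ta KO against Control the count was 0 of 8 by each of these rules, with 11.4%, 22.7% and 12.0% of all genes passing them. In PBX3_Cl KO against PAX6_Ta KO it was again 0 of 8 by each, with 12.0%, 24.3% and 12.5% of all genes. At the shares called by adjusted p, 8 genes would hold 0.717, 0.914 and 0.957 calls in the 3 comparisons, so a count of 0 lies near the background.

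The spread between replicates sets how large a change could have been missed. In PBX3_Cl KO against Control the log2 fold changes of the 8 genes ran from -0.38 (SCAI) to 0.36 (ZBTB43), with standard errors of 0.19 to 0.25. Their 95% intervals ran from a fold of 0.574 at the lowest to 1.80 at the highest. For each of the 8 genes a doubling or a halving thus lay outside the interval. The labels do not say whether replicates came from separate clones, so these intervals may leave out the spread between clones. They are per gene and not adjusted for 8 genes. In PAX6_Ta KO against Control the intervals reached from 0.571 to 1.56 fold, and between the knockouts from 0.724 to 1.69 fold. The median log2 fold change of the 8 genes was 0.076 in PBX3_Cl KO against Control and -0.025 in PAX6_Ta KO against Control, beside -0.0089 and -0.019 over all tested genes. The first value turned to -0.061 without PBX3_Cl KO replicate 1. Their median absolute log2 fold change was 0.16 in PBX3_Cl KO and 0.098 in PAX6_Ta KO, where that of all tested genes was 0.32 and 0.34. No account was taken here of expression level, which differs between the flanking genes and all genes.

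**Figure D1:**
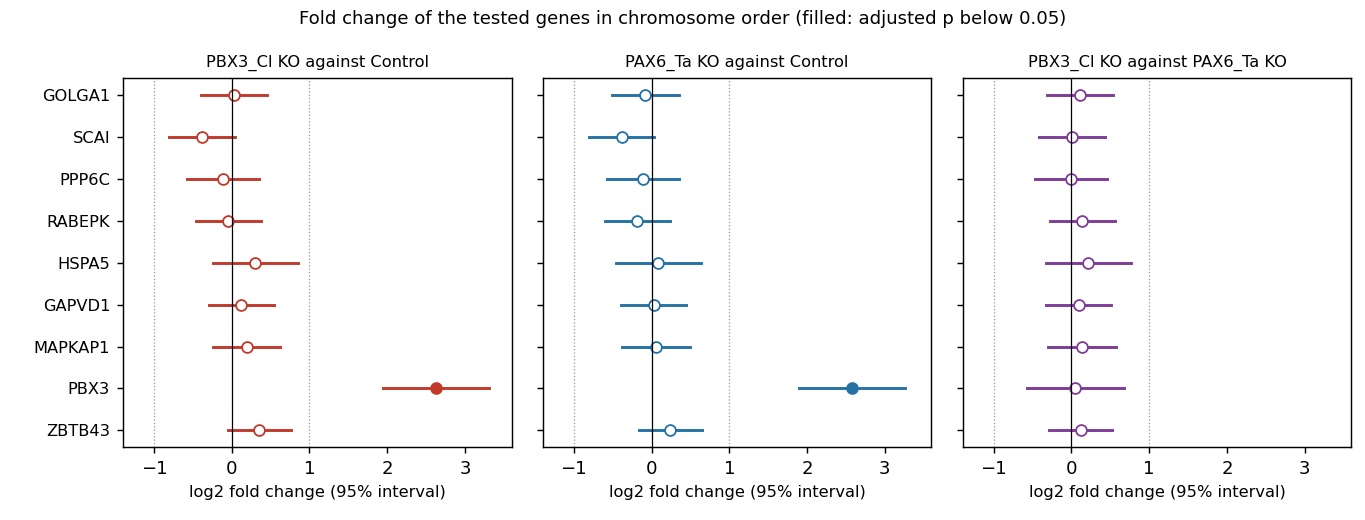
Log2 fold change (horizontal axis) with its 95% interval for the 8 tested flanking genes and PBX3, in chromosome order, in the 3 comparisons. Filled points passed the threshold and dotted lines mark a 2-fold change. The 8 flanking genes straddle 0 in every panel, while PBX3 lies at 2.62 and 2.58 against Control and at 0.05 between the knockouts.

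MAPKAP1, the host gene, encodes SIN1, a subunit of the growth-signalling kinase complex mTORC2. Its level was 103.0 and 83.2 CPM in PBX3_Cl KO, 92.6 and 76.6 CPM in PAX6_Ta KO and 85.95 and 77.0 CPM in Control. The 3 groups overlapped, and replicate 1 was the higher library in each. The log2 fold change was 0.19 in PBX3_Cl KO against Control (SE 0.20, 95% interval -0.24 to 0.63, adjusted p = 0.707), 0.05 in PAX6_Ta KO against Control (adjusted p = 0.931) and 0.14 between the knockouts (interval -0.30 to 0.57). After removal of 972 bp from its first intron, a change of MAPKAP1 counts was not detectable at this precision.

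PPP6C, the catalytic subunit of protein phosphatase 6, was at 52.1 and 36.0 CPM in PBX3_Cl KO, 42.5 and 45.9 CPM in PAX6_Ta KO and 45.2 and 50.1 CPM in Control. The PBX3_Cl KO libraries lay on either side of all others, the widest relative spread between replicates among the tested flanking genes after that of HSPA5. On the log2 scale the change was -0.11 against Control in PBX3_Cl KO (interval -0.58 to 0.35, adjusted p = 0.859) and -0.11 in PAX6_Ta KO (adjusted p = 0.852).

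HSPA5 encodes BiP, the main HSP70 chaperone of the ER and a standard readout of ER stress. It was the most abundant of the flanking genes per length of transcript. Its level was 575.6 and 361.3 CPM in PBX3_Cl KO, 451.2 and 356.0 CPM in PAX6_Ta KO and 359.5 and 400.6 CPM in Control. PBX3_Cl KO replicate 1 stood above the other libraries and replicate 2 was within the Control range. The fitted log2 fold change was 0.30 (SE 0.25, interval -0.24 to 0.85, adjusted p = 0.612) in PBX3_Cl KO against Control, 0.09 in PAX6_Ta KO against Control (adjusted p = 0.910) and 0.22 between the knockouts (adjusted p = 0.682). Without PBX3_Cl KO replicate 1 the first value was -0.11.

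GAPVD1 and RABEPK act in endosomal traffic, GAPVD1 as an exchange factor for RAB5 and RABEPK as a partner of RAB9. GAPVD1 was at 203.5 and 187.2 CPM in PBX3_Cl KO, 183.3 and 183.1 CPM in PAX6_Ta KO and 164.2 and 195.0 CPM in Control, with both PBX3_Cl KO libraries above both PAX6_Ta KO libraries and neither group apart from Control. The log2 fold change was 0.12 in PBX3_Cl KO against Control (interval -0.30 to 0.54, adjusted p = 0.828) and 0.03 in PAX6_Ta KO against Control. RABEPK was at 49.9 and 43.9 CPM in PBX3_Cl KO, 46.03 and 39.0 CPM in PAX6_Ta KO and 50.7 and 45.9 CPM in Control, and the groups overlapped. The change on the log2 scale was -0.04 in PBX3_Cl KO (interval -0.46 to 0.37, adjusted p = 0.954) and -0.18 in PAX6_Ta KO (interval -0.60 to 0.23, adjusted p = 0.681).

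GOLGA1 encodes golgin-97, a tethering protein of the trans-Golgi network. Its level was 31.1 and 32.9 CPM in PBX3_Cl KO, 30.6 and 28.7 CPM in PAX6_Ta KO and 34.6 and 28.0 CPM in Control. The Control libraries enclosed those of both knockouts. On the log2 scale the change was 0.03 in PBX3_Cl KO against Control (interval -0.39 to 0.46, adjusted p = 0.972), with a sign that turned under 2 other choices of filter and scaling, and -0.08 in PAX6_Ta KO against Control (adjusted p = 0.893).

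SCAI, a nuclear suppressor of the MRTF and SRF transcription factors, had the lowest unadjusted p of the flanking genes in PBX3_Cl KO. Its level was 22.7 and 21.9 CPM in PBX3_Cl KO, 20.7 and 23.6 CPM in PAX6_Ta KO and 27.8 and 30.2 CPM in Control. All 4 knockout libraries lay below both Control libraries. The fitted log2 fold change was -0.38 in PBX3_Cl KO against Control (SE 0.19, interval -0.80 to 0.04, adjusted p = 0.318) and -0.39 in PAX6_Ta KO against Control (SE 0.19, interval -0.81 to 0.04, adjusted p = 0.271), so neither passed the threshold. These comparisons share the Control libraries. Between the knockouts the difference was 0.01 (interval -0.42 to 0.43, adjusted p = 0.988).

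ZBTB43, a zinc-finger and BTB-domain protein of the nucleus, was the only other tested flanking gene whose knockout and Control libraries did not overlap. Its level was 33.05 and 32.9 CPM in PBX3_Cl KO, 30.3 and 30.4 CPM in PAX6_Ta KO and 24.4 and 27.0 CPM in Control, with each group apart from the next. The log2 fold change was 0.36 in PBX3_Cl KO against Control (SE 0.19, interval -0.05 to 0.76, adjusted p = 0.337), 0.24 in PAX6_Ta KO against Control (interval -0.17 to 0.65, adjusted p = 0.539) and 0.12 between the knockouts (interval -0.29 to 0.52, adjusted p = 0.778). None of the 3 passed the threshold. How many of all tested genes separate as SCAI and ZBTB43 do was not counted. No result is read from that separation.

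MVB12B and LMX1B could not be tested. MVB12B, a subunit of the endosomal sorting complex ESCRT-I, had 1 and 1 counts in PBX3_Cl KO, 19 and 8 counts in PAX6_Ta KO and 7 and 0 counts in Control. The ratio of pooled counts at equal depth was 0.351 for PBX3_Cl KO over Control (exact 95% interval 0.0356 to 1.85), 4.23 for PAX6_Ta KO over Control (1.80 to 11.5) and 0.083 for PBX3_Cl KO over PAX6_Ta KO (0.00956 to 0.33). These intervals cover counting error only, and the Control libraries alone differed by 7 counts to 0. With no filter on low counts MVB12B was called lower in PBX3_Cl KO than in PAX6_Ta KO (log2 fold change -3.50, adjusted p = 0.0148), and not in PBX3_Cl KO against Control (adjusted p = 0.792). LMX1B, a LIM-homeodomain factor of limb, kidney and midbrain, had 0 counts in all 6 libraries. A count of 0 allows up to 3 counts over the group, or 0.0334 CPM in PBX3_Cl KO, 0.0298 CPM in PAX6_Ta KO and 0.0271 CPM in Control.

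**Figure D2:**
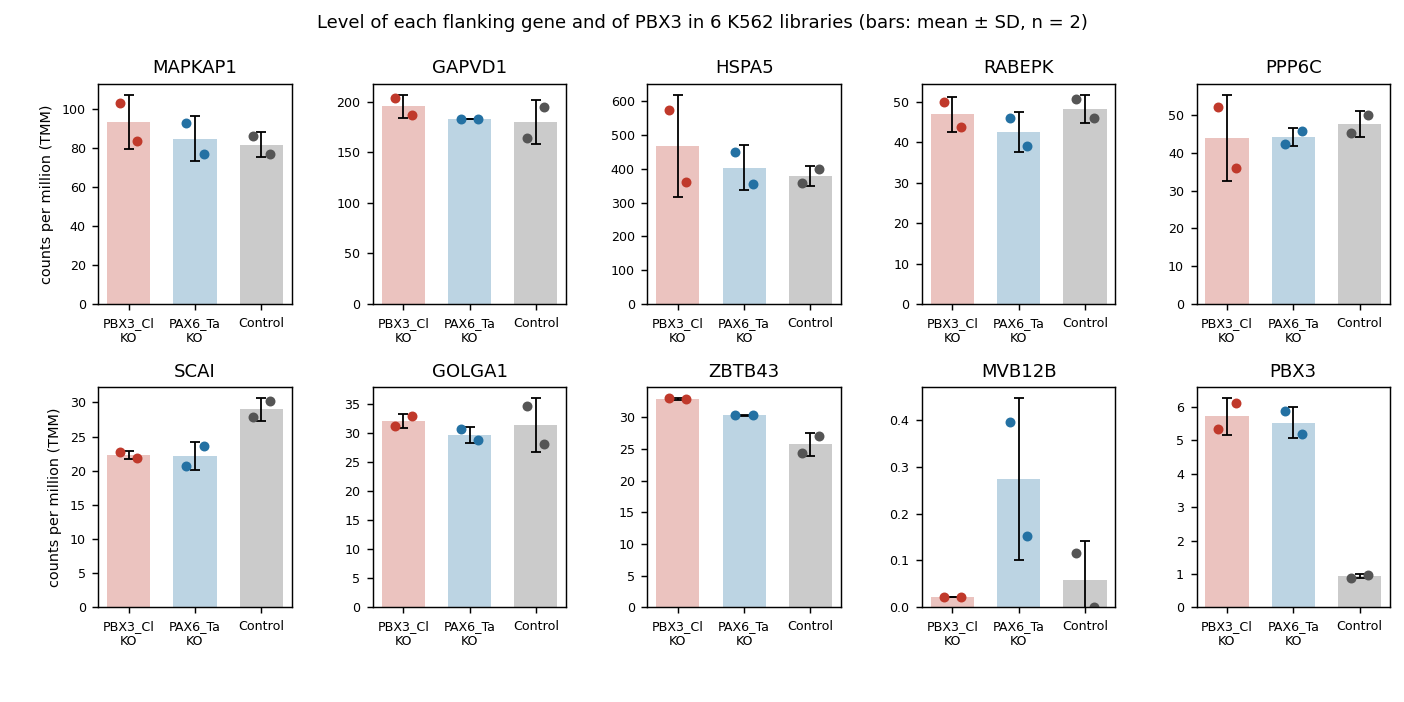
CPM (vertical axes, each from 0) of the 9 flanking genes with reads and of PBX3 in PBX3_Cl KO, PAX6_Ta KO and Control. Points are the libraries, bars the mean and whiskers the SD of 2 libraries. SCAI lies lower and ZBTB43 higher in both knockouts than in Control, a separation whose share over all genes was not counted. The other tested flanking genes overlap with Control. MVB12B stays under 0.4 CPM. PBX3 lies above 5 CPM in both knockouts and below 1 CPM in Control.

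Per kilobase of canonical transcript the flanking genes differed widely in level. The mean over the 6 libraries was 106.5 RPKM for HSPA5, 27.5 for RABEPK, 25.6 for MAPKAP1, 20.3 for GAPVD1, 11.04 for PPP6C, 6.35 for GOLGA1, 5.0 for ZBTB43 and 2.02 for SCAI. Neighbours in this order did not overlap in their library values except RABEPK (23.4 to 30.4 RPKM) and MAPKAP1 (22.7 to 30.6 RPKM). The low value of SCAI goes with its long transcript of 12111 bases.

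PBX3 was the exception at this locus, and it rose in both edited lines. It had 235 and 280 counts in PBX3_Cl KO, 282 and 274 counts in PAX6_Ta KO and 53 and 49 counts in Control. The log2 fold change was 2.62 in PBX3_Cl KO (SE 0.31, adjusted p = 0.000178) and 2.58 in PAX6_Ta KO (SE 0.31, adjusted p = 0.000167), both against the same Control libraries, and 0.05 between the knockouts (interval -0.58 to 0.67, adjusted p = 0.951). A rise was thus also measured in a line whose PBX3_Cl was not targeted, and that interval bounds the difference between the lines.

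Widening the view from the listed genes to all genes placed within 1 Mb of the element left PBX3 as the 1 called gene of 21 tested, in PBX3_Cl KO and likewise in PAX6_Ta KO. The other 13 genes in that window, among them NR6A1, RPL35 and ARPC5L, had 0 calls by edgeR, 0 by DESeq2 and 0 at an unadjusted p below 0.05, and their median log2 fold change in PBX3_Cl KO was -0.048. Within 5 Mb the picture differed. In PBX3_Cl KO 23 of 156 tested genes were called higher and 4 lower (17.3%), beside 6.28% higher and 2.69% lower over all genes. In PAX6_Ta KO 7 were called higher and 1 lower (5.13%), beside 7.21% and 4.21% over all genes. No chance test was made of these shares, and the median of the 156 genes was 0.041 in PBX3_Cl KO and 0.015 in PAX6_Ta KO. Along the rest of 9q, 38 of 428 tested genes were called in PBX3_Cl KO, with a median of -0.018. In PAX6_Ta KO 46 of these 428 genes were called, with a median of 0.0065. Over all tested genes 8.97% were called in PBX3_Cl KO and 11.4% in PAX6_Ta KO.

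After PBX3, the called genes nearest to the element were NEK6 and the lncRNAs ENSG00000227200 and ENSG00000235204, at 1.34 to 1.43 Mb. NEK6, a mitotic kinase, was at 22.0 and 21.4 CPM in PBX3_Cl KO, 2.33 and 3.12 CPM in PAX6_Ta KO and 2.25 and 3.56 CPM in Control, and the log2 fold change was 2.90 in PBX3_Cl KO against Control (SE 0.30, adjusted p = 4.77e-05) and -0.09 in PAX6_Ta KO (adjusted p = 0.921). The 2 PBX3_Cl KO libraries stood well above the other 4. Both lncRNAs overlap NEK6, ENSG00000227200 on its strand and ENSG00000235204 on the other, and their reads may be those of NEK6, since no source at hand gives the strand setting used to count. ENSG00000235204 had 28 and 21 counts in PBX3_Cl KO and 0 in the other 4 libraries, at least 20.1-fold higher than Control on a floor of 3 counts over the group. ENSG00000227200 had 10 and 32 counts in PBX3_Cl KO, 2 and 1 in PAX6_Ta KO and 0 in both Control libraries, at least 17.2-fold higher than Control.

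Of the other genes with the largest changes in the window, 5 had values above 0 in PAX6_Ta KO as well. GARNL3 (1.53 Mb) was at 2.06 and 3.47 CPM in PBX3_Cl KO, 0.937 and 1.35 CPM in PAX6_Ta KO and 0.35 and 0.673 CPM in Control, with log2 fold changes of 2.44 (adjusted p = 0.00500) and 1.17 (adjusted p = 0.147) against Control. PTGS1 (3.30 Mb), the cyclo-oxygenase COX-1, was at 134.9 and 164.7 CPM in PBX3_Cl KO, 45.97 and 38.2 CPM in PAX6_Ta KO and 22.9 and 7.39 CPM in Control, with log2 fold changes of 3.30 (adjusted p = 0.000219) and 1.47 (adjusted p = 0.0254). The lncRNA ENSG00000269970 lies within PTGS1 on the same strand and showed 2.88 (adjusted p = 0.00478) and 1.28 (adjusted p = 0.190), from reads that may be those of PTGS1. NCS1 (4.48 Mb), a neuronal calcium sensor, was at 70.1 and 52.6 CPM in PBX3_Cl KO, 28.5 and 19.8 CPM in PAX6_Ta KO and 4.13 and 4.08 CPM in Control, rises of 3.90 (adjusted p = 2.02e-06) and 2.55 (adjusted p = 2.61e-05) on the log2 scale. ASS1 (4.86 Mb), the arginine-synthesis enzyme argininosuccinate synthase, was at 6.08 and 5.57 CPM in PBX3_Cl KO, 18.2 and 8.53 CPM in PAX6_Ta KO and 0.217 and 0.0594 CPM in Control, with log2 fold changes of 5.33 (adjusted p = 3.77e-05) and 6.52 (adjusted p = 8.03e-06). For PTGS1, NCS1 and ASS1 the call against Control was thus made in both edited lines. The size of the change in PBX3_Cl KO depended on single libraries. Without Control replicate 1 it was 6.56 for ASS1, 4.35 for PTGS1 and 3.58 for ENSG00000269970 on the log2 scale. Without Control replicate 2 it was 4.73 for ASS1 and 2.71 for PTGS1, and ENSG00000269970 was at 2.21 without PBX3_Cl KO replicate 2. These calls held in each of those fits.

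Partner genes gave a view of the pathways that the flanking genes serve. Across 9 lists of partner genes 105 genes were tested, of which 5 were called higher and 1 lower in PBX3_Cl KO against Control (5.71%), beside 8.97% of all tested genes. With the replicate number as a block 11 were called higher and 2 lower. The share of all genes called was not counted for that blocked fit, so these counts cannot be set against 8.97%. In PAX6_Ta KO against Control 5 were called higher and 5 lower (9.52%), beside 11.4% of all tested genes. Without Control replicate 2 the count in PBX3_Cl KO was 3.

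Around MAPKAP1, 1 of 13 tested mTORC2 partners and targets rose and 1 fell in PBX3_Cl KO (15.4%, beside 8.97% of all tested genes). In PAX6_Ta KO 3 rose and 1 fell (30.8%, beside 11.4% of all tested genes). The list was not tested as a set. NDRG1, a stress-responsive protein phosphorylated by SGK1, was at 13.4 and 7.01 CPM in PBX3_Cl KO, 91.2 and 69.9 CPM in PAX6_Ta KO and 28.2 and 19.3 CPM in Control. It fell by 1.22 on the log2 scale in PBX3_Cl KO (SE 0.30, adjusted p = 0.0220) and rose by 1.76 in PAX6_Ta KO (SE 0.30, adjusted p = 0.00190). The 3 groups did not overlap. The fall lost its call without PBX3_Cl KO replicate 2 (adjusted p = 0.103) and without Control replicate 1 (adjusted p = 0.0611). SGK1, a kinase activated through mTORC2, rose by 0.78 in PBX3_Cl KO (adjusted p = 0.0381) and by 1.09 in PAX6_Ta KO (adjusted p = 0.00471), and the rise in PBX3_Cl KO passed the threshold under only 4 of 13 alternatives, over which its adjusted p ran from 0.0168 to 0.242. The other calls in PAX6_Ta KO were PRR5L, an mTORC2-associated protein, and SGK3, a kinase related to SGK1. PRR5L was at 3.93 (adjusted p = 0.00228) and SGK3 at -1.19 (adjusted p = 0.0318). The paper lists PRR5L among genes within 5 Mb of PAX6_Ta that rose in that knockout.

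Around HSPA5, 2 of 26 tested ER chaperone and unfolded-protein-response genes rose in PBX3_Cl KO and 0 fell (7.69%, beside 8.97% of all tested genes). The list median was 0.35, beside -0.0089 over all tested genes, and the list was not tested as a set. HERPUD1, a component of ER-associated degradation, was at 60.2 and 42.6 CPM in PBX3_Cl KO, 37.1 and 27.1 CPM in PAX6_Ta KO and 26.8 and 25.7 CPM in Control, a rise of 0.97 in PBX3_Cl KO (SE 0.23, adjusted p = 0.0182). ATF6, an ER stress sensor, was at 280.1 and 206.0 CPM in PBX3_Cl KO, 148.0 and 115.4 CPM in PAX6_Ta KO and 146.3 and 117.2 CPM in Control, a rise of 0.88 (SE 0.23, adjusted p = 0.0295). Both lost the call without PBX3_Cl KO replicate 1 (adjusted p = 0.0996 for HERPUD1 and 0.133 for ATF6), the library with the high HSPA5 value, and without Control replicate 2 (0.0652 and 0.242). In PAX6_Ta KO 0 of the 26 rose and 2 fell (7.69%, beside 11.4% of all tested genes), and the list median was 0.0076.

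Around MVB12B, TSG101, the ubiquitin-binding subunit of ESCRT-I, was the 1 called gene of 8 in PBX3_Cl KO (12.5%, beside 8.97% of all tested genes). TSG101 was at 64.0 and 48.2 CPM in PBX3_Cl KO, 66.8 and 43.9 CPM in PAX6_Ta KO and 26.1 and 23.5 CPM in Control. It rose by 1.18 in PBX3_Cl KO (SE 0.24, adjusted p = 0.00736) and by 1.16 in PAX6_Ta KO (SE 0.24, adjusted p = 0.00661), and the rise in PBX3_Cl KO lost its call narrowly without PBX3_Cl KO replicate 1 (adjusted p = 0.0505). In PAX6_Ta KO 2 of the 8 were called (25%, beside 11.4% of all tested genes). These were TSG101 and VPS37A, another ESCRT-I subunit, which fell by 0.72 (adjusted p = 0.0322). Around GOLGA1, GOLGA2, the cis-Golgi golgin GM130, was the 1 called gene of 10 in PBX3_Cl KO (10%, beside 8.97% of all tested genes). In PAX6_Ta KO 0 of 10 were called. GOLGA2 was at 258.1 and 241.6 CPM in PBX3_Cl KO, 100.8 and 85.4 CPM in PAX6_Ta KO and 102.8 and 87.8 CPM in Control. This was a rise of 1.39 (SE 0.20, adjusted p = 0.000678) in PBX3_Cl KO and a value of -0.03 in PAX6_Ta KO (adjusted p = 0.959). GOLGA2 itself lies on 9q, 2.56 Mb from the element. In PBX3_Cl KO 0 of 10 partners of PPP6C, 0 of 13 endosomal RAB partners of GAPVD1 and RABEPK, 0 of 12 genes of the MRTF and SRF axis of SCAI, 0 of 4 relatives and partners of LMX1B and 0 of 9 ZBTB relatives of ZBTB43 were called. The medians of those lists lay between -0.087 and 0.11. In PAX6_Ta KO these lists held 2 calls, RIN3 among the endosomal RAB partners and SMARCA2 in the MRTF and SRF axis.

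**Figure D3:**
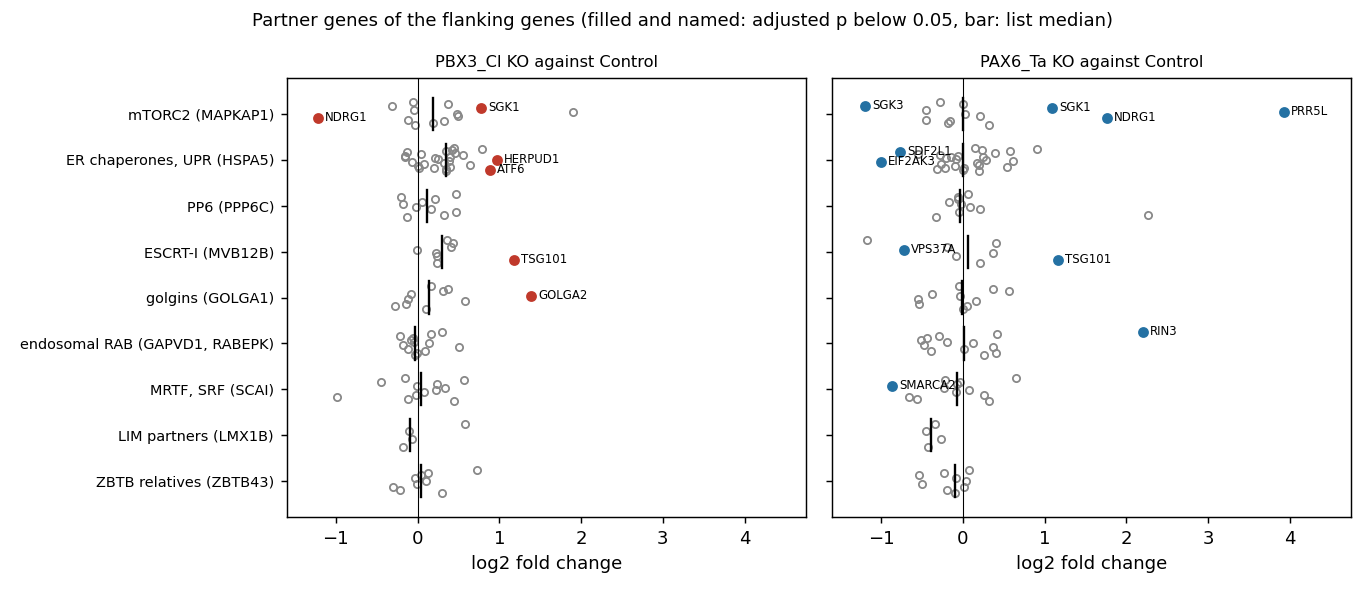
Log2 fold change (horizontal axis) of the tested genes in the 9 partner lists in PBX3_Cl KO (left) and PAX6_Ta KO (right) against Control. Filled and named points passed the threshold and black bars are list medians. TSG101 and SGK1 lie to the right in both panels, GOLGA2 is called in the left panel (1.39) and not in the right (-0.03), and NDRG1 lies on opposite sides of 0.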

How the data were processed

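Per the labels and the study's methods, libraries came from a stranded kit (Collibri). The authors removed adaptors (Cutadapt 3.4), used STAR for alignment to GRCh37 and deposited raw read counts per gene. No source used here gives STAR's version or the strand setting. Of the table's sample columns, 4 match none of the labels and were not used. The authors' own tables of fold changes and p-values were not used either. The rule for the 10 members names symbols and sets no condition on a value, but the members, the partner lists and the rule for named genes were all chosen with earlier results of these data known.

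Genes passing filterByExpr were scaled by TMM and fitted together over the 6 libraries with edgeR (version 4.0.16, R version 4.3.3). Contrasts were tested by quasi-likelihood and adjusted by the Benjamini-Hochberg procedure over all 20746 genes. The 95% intervals use the fitted standard error and 12.2 degrees of freedom. The fit was tested on simulated counts. CPM values are TMM-scaled, and RPKM values divide them by the canonical transcript length of GENCODE. Deviations from group means correlated at 0.389, 0.21 and 0.379 between same-numbered replicates of different groups, so the numbers were taken to pair the libraries. Values and intervals are from the fit without the block unless another fit is named, and the blocked fit is an alternative. In that blocked fit SCAI and ZBTB43 had adjusted p-values of 0.157 and 0.159 in PBX3_Cl KO against Control. Named were the members, PBX3, the 8 largest called changes within 5 Mb and up to 4 per partner list. Alternatives were DESeq2 (version 1.42.0), upper-quartile scaling, 2 other filters, the block, fits on only the 2 groups compared, removal of the 9q median and leaving out each library. The K562 marker list is given here by single genes, since 1 of its genes is not reported here.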

Additional observations from a re-analysis of the deposited data

Results flagged for a closer look

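By the direct test between the lines (edgeR, adjusted p below 0.05), PBX3_Cl KO and PAX6_Ta KO libraries differed in none of the flanking genes. They differed in some of the genes named for their place on 9q or as partners. Values are log2 fold changes of PBX3_Cl KO over PAX6_Ta KO. NEK6 was at 2.99, PTGS1 at 1.83 and NCS1 at 1.35. The lncRNAs at NEK6 were at 7.78 (ENSG00000235204) and 3.85 (ENSG00000227200), fitted values that depend on the prior count where a group is at 0. By counts, the first was at least 18.3-fold higher and the second 15.7-fold (exact 95% interval 5.01 to 79.1). Among partners, NDRG1 was at -2.98, ATF6 at 0.88 and GOLGA2 at 1.42.

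GOLGA2 was flagged together with its neighbours, which were picked after their values were seen. BBLN was at 1.33, CIZ1 at 1.28, SWI5 at 1.23, TRUB2 at 1.06 and COQ4 at 0.97.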

How the results depend on the processing

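The count of flanking genes called was 0 in PBX3_Cl KO against Control under all 13 alternatives. Between the knockouts it was 1 (MVB12B) with no filter on low counts, and leaving out 1 library gave 0 to 1 there and in PAX6_Ta KO against Control, again MVB12B, which then passed the filter. Leaving out 1 library gave 1 to 2 called genes within 1 Mb in PAX6_Ta KO, 3 to 7 partner genes in PBX3_Cl KO and a median of the flanking genes from -0.061 to 0.16. In PBX3_Cl KO against Control the fit with the replicate block called 13 partner genes. Within 5 Mb it called 28 genes higher and 4 lower (23 and 4 without it). The share of all genes called was not counted for that fit, so these counts cannot be read as a result about the locus or the partners. It changed no call of a flanking gene or of PBX3. Values near 0 turned sign. With 10 or more counts required in every library, GOLGA1 was at -0.0097 in PBX3_Cl KO against Control, and SCAI and PBX3 at -0.069 and -0.026 between the knockouts. With upper-quartile scaling these were -0.042, -0.095 and -0.043, and GAPVD1 was at -0.0071 between the knockouts. SCAI between the knockouts was -0.013 with DESeq2, -0.020 with no filter and -0.041 with only the 2 groups compared, where PBX3 was at -0.00067. PPP6C between the knockouts was 0.020 with the 9q median taken out. Leaving out 1 library, PBX3_Cl KO against Control ran from -0.12 to 0.19 for GOLGA1, -0.45 to 0.13 for PPP6C, -0.18 to 0.053 for RABEPK, -0.11 to 0.61 for HSPA5 and -0.0098 to 0.34 for MAPKAP1. PAX6_Ta KO against Control ran from -0.23 to 0.082 for GOLGA1, -0.099 to 0.25 for HSPA5, -0.090 to 0.15 for GAPVD1 and -0.094 to 0.19 for MAPKAP1. Between the knockouts the range was -0.080 to 0.10 for SCAI, -0.33 to 0.25 for PPP6C, -0.20 to 0.52 for HSPA5, -0.0073 to 0.16 for GAPVD1, -0.064 to 0.29 for MAPKAP1 and -0.045 to 0.14 for PBX3. None of these values passed the threshold in any alternative. The cause was not tested. With 2 libraries a group, the 95% intervals of the flanking genes in PBX3_Cl KO against Control reached 0.574 and 1.80 fold at their ends.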

Other observations

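Some of the 27 calls within 5 Mb in PBX3_Cl KO were neighbours, and 3 such stretches are given here, beside 6.28% of all tested genes called higher. The stretches and their genes were picked after their values were seen, the other calls in the window lie outside them, and no test of clustering was made. Between BBLN and COQ4, a stretch of 174 kb that starts 2.46 Mb from the element, 6 of 8 tested genes were higher in PBX3_Cl KO than in Control and 0 were lower, with log2 fold changes of 1.06 to 1.42 among the called genes. In PAX6_Ta KO 0 of the same 8 genes were called. CIZ1, a nuclear matrix protein of DNA replication, was at 501.7 and 629.6 CPM in PBX3_Cl KO, 252.7 and 213.5 CPM in PAX6_Ta KO and 215.8 and 207.8 CPM in Control. COQ4, a coenzyme Q synthesis protein of mitochondria, was at 59.6 and 88.4, 35.5 and 40.2, and 34.1 and 36.7 CPM in the same groups, and TRUB2, a mitochondrial pseudouridine synthase, was at 162.1 and 120.1, 74.2 and 61.5, and 63.3 and 59.2 CPM. BBLN overlaps CIZ1 and SWI5 overlaps GOLGA2 and TRUB2 on opposite strands, so their calls may not be independent. Next to this stretch CERCAM was lower, with log2 fold changes of -2.41 in PBX3_Cl KO (adjusted p = 9.38e-05) and -0.55 in PAX6_Ta KO (adjusted p = 0.22).

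A stretch of 79.4 kb from PSMD5 to PHF19, 4.80 Mb away on the other side, had 3 of 3 tested genes higher in PBX3_Cl KO (0.92 to 1.35 on the log2 scale) and 0 of 3 called in PAX6_Ta KO. From TOR1B to C9orf78, 4.11 Mb away, 3 of 4 tested genes were higher in PBX3_Cl KO (0.82 to 0.96) and 0 of 4 were called in PAX6_Ta KO. The fourth, USP20, was at -0.37 (adjusted p = 0.344). The 8 tested flanking genes lie between these stretches.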
